A study of Mus musculus with 65 samples.

Results

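Immediate early genes are the genes that cells transcribe within minutes of a stimulus without first making new protein. Rows of 10 of them, Fos, Fosb, Jun, Junb, Jund, Egr1, Ier2, Btg2, Dusp1 and Nr4a1, were taken by symbol from the 55292 genes in the count table, and all 10 were found. The genes were chosen because earlier results of the same data showed them higher in mutant cells, so their difference between genotypes is described here and not tested. The data are 65 single outer hair cells (OHCs), the cells that amplify sound in the cochlea, taken from mice at postnatal day 10. The 17 Casz1 CKO cells came from mice of the genotype Atoh1Cre/+; Casz1flox/flox; Slc26a5FlpO/+; Rosa26FSF-H2BEGFP/+, and the 48 WT cells from Slc26a5FlpO/+; Rosa26FSF-H2BEGFP/+ mice. Both groups therefore carried FlpO recombinase under control of the prestin gene Slc26a5 and the nuclear GFP reporter that it switches on. They differed in Cre, which was driven from Atoh1, a gene that hair cells switch on early, as well as in Casz1, which encodes a zinc finger transcription factor. Cells were freed with enzymes, picked by hand and turned into full-length cDNA (Smart-Seq HT) without molecular identifiers.

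Fos, Fosb, Jun, Junb and Jund encode the subunits of the dimeric transcription factor AP-1, in which a Fos protein pairs with a Jun protein. Egr1 and Nr4a1 encode a zinc finger factor and an orphan nuclear receptor, while the products of Btg2, Dusp1 and Ier2 are an antiproliferative cofactor, a phosphatase that switches off MAP kinases and a small nuclear protein. Kinase cascades and calcium induce most of these genes through factors already bound at their promoters, among them CREB and the serum response factor with its partners. Their transcripts are short-lived. The enzymatic dissociation of tissue is itself a known inducer of immediate early genes, and both genotypes went through it.

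The promoter windows of 4 members are shown because they stand for the patterns described further on, Jun for genes on in nearly every cell and Fos, Dusp1 and Nr4a1 for genes on in some, with that of Hspa5, the gene of the endoplasmic reticulum (ER) chaperone BiP, against which the members were set. Each window runs from 250 bases before to 50 bases after the RefSeq start (GRCm38.p6), on the gene's own strand. Capitals mark matches to TGACG, the half-site of the CREB motif, and to TGACNTCA, its full site TGACGTCA with any base at N. They also mark GCGNGGGCG, the EGR motif, and CCAAT and CCACG set 9 bases apart, the ER stress element. Each was searched on both strands. The match in Jun, TGACATCA, is not the full site. CGTCA is TGACG read on the other strand, and CGCCCCCGC the EGR motif read so. In Dusp1, TGACGTCA holds overlapping matches to the half-site and the full site.
Fos (chr12:85473640-85473939, plus strand): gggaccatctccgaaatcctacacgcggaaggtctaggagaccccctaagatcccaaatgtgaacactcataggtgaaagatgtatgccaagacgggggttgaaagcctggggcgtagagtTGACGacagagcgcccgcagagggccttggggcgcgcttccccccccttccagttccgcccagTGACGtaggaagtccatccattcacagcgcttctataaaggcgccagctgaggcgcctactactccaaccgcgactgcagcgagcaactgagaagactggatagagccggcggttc
Jun (chr4:95052173-95052472, minus strand): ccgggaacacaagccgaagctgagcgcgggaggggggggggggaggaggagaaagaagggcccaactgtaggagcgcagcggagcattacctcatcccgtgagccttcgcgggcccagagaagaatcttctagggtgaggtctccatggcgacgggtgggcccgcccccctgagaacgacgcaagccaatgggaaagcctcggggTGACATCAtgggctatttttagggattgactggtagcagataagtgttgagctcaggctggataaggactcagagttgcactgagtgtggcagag
Dusp1 (chr17:26508423-26508722, minus strand): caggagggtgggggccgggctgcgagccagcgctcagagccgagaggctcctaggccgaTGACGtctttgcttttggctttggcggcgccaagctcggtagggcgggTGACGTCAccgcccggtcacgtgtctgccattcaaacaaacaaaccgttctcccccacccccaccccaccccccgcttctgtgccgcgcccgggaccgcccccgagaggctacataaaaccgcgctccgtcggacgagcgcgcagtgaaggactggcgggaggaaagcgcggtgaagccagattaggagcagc
Nr4a1 (chr15:101266596-101266895, plus strand): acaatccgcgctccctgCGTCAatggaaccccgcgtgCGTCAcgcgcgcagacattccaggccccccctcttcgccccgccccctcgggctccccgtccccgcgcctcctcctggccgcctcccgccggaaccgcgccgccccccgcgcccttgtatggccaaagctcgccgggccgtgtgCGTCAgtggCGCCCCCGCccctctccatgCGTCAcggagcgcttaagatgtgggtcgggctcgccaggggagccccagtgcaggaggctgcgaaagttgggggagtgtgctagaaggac
Hspa5 (chr2:34771840-34772139, plus strand): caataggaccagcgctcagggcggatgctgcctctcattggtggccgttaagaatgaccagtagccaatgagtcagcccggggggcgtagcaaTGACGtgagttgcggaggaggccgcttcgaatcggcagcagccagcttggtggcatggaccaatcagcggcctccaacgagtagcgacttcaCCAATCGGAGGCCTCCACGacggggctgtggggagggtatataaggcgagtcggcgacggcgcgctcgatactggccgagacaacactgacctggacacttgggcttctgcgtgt

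RefSeq windows were found for 8 of the 10 members, all but Egr1 and Ier2. Of these 8, 6 held TGACG, which 20.8% of all 32851 windows of the same length hold, and 3 (Jun, Btg2 and Dusp1) held TGACNTCA, against 8.83% of all windows. The EGR motif stood in 3 (Fosb, Btg2 and Nr4a1), against 5.55% of all windows. The ER stress element stood in Hspa5 and in none of the 8, and 0.119% of all windows hold it. The CArG box, the binding motif of serum response factor, was not found in any of the 8 windows and is in 1.63% of all. Sequence outside the windows, and that of Egr1 and Ier2, was not searched. These matches describe letters in a short window and show no binding.

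Summed counts per cell ran from 8239671 to 15320549 in CKO cells and from 7458126 to 17107710 in WT cells, and levels are given as counts per 1000000 (CPM). Casz1 stood at 46.2 CPM over the CKO cells and 53.3 CPM over the WT cells. The labels do not give the floxed exons, so whole-gene counts check nothing about the deletion, and every direction rests on the labels. All 12 markers of OHCs were measured, with a summed level of 36270 to 93730 CPM per CKO cell and 18600 to 66820 CPM per WT cell. Of 66 markers of 8 other cell types that the tissue holds, 21 were measured, 10 higher and 11 lower in CKO cells. The macrophage list ran from 0 to 73.4 CPM per CKO cell and from 0 to 188 CPM per WT cell, with C1qa, Cx3cr1 and Fcer1g at 0 in every cell but C1qb at 3.03 and 18.8 CPM. The mesenchymal list ran from 0 to 117 CPM per CKO cell and from 0 to 562 CPM per WT cell, with Col3a1, Pou3f4 and Tbx18 at 0 in every cell but Lum at up to 544 CPM in a WT cell. Xist without Y-linked transcripts was found in 15 of 17 CKO and 9 of 48 WT cells, so genotype and sex were largely confounded. WT cells also fell into runs of cell numbers (1 to 11, 12 to 45 and 46 to 48) that differed in mt-Co2. It ran from 33.5 to 83.6, from 228.6 to 644 and from 100.1 to 111.3 CPM in these runs. In CKO cells it ran from 94.8 to 282.6 CPM, above every cell of the first run. That first run held 8 of the 9 WT cells with Xist and no Y-linked transcripts. The labels name no animal and no batch. Each genotype was therefore 1 sample, no test was possible between genotypes, and intervals at 95% cover counting error only.

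The summed level of all 10 members was higher in CKO than in WT cells, by a median log2 ratio of 1.01, and 5 of them (Nr4a1, Btg2, Dusp1, Egr1 and Jun) were at least 2-fold higher. Fosb, the lowest at 0.083, was at -0.040 under median-of-ratios scaling. Of the 10842 genes measured, meaning 5 CPM or more in either group, 50.4% were higher in CKO cells, 15.1% were at least 2-fold higher, and the median log2 ratio was 0.0092. Nothing is read from this contrast, since the members were chosen by it. Fos, at a log2 ratio of 0.96, and Jun, at 1.07, lay just below and just above the 2-fold line.

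**Figure D1:**
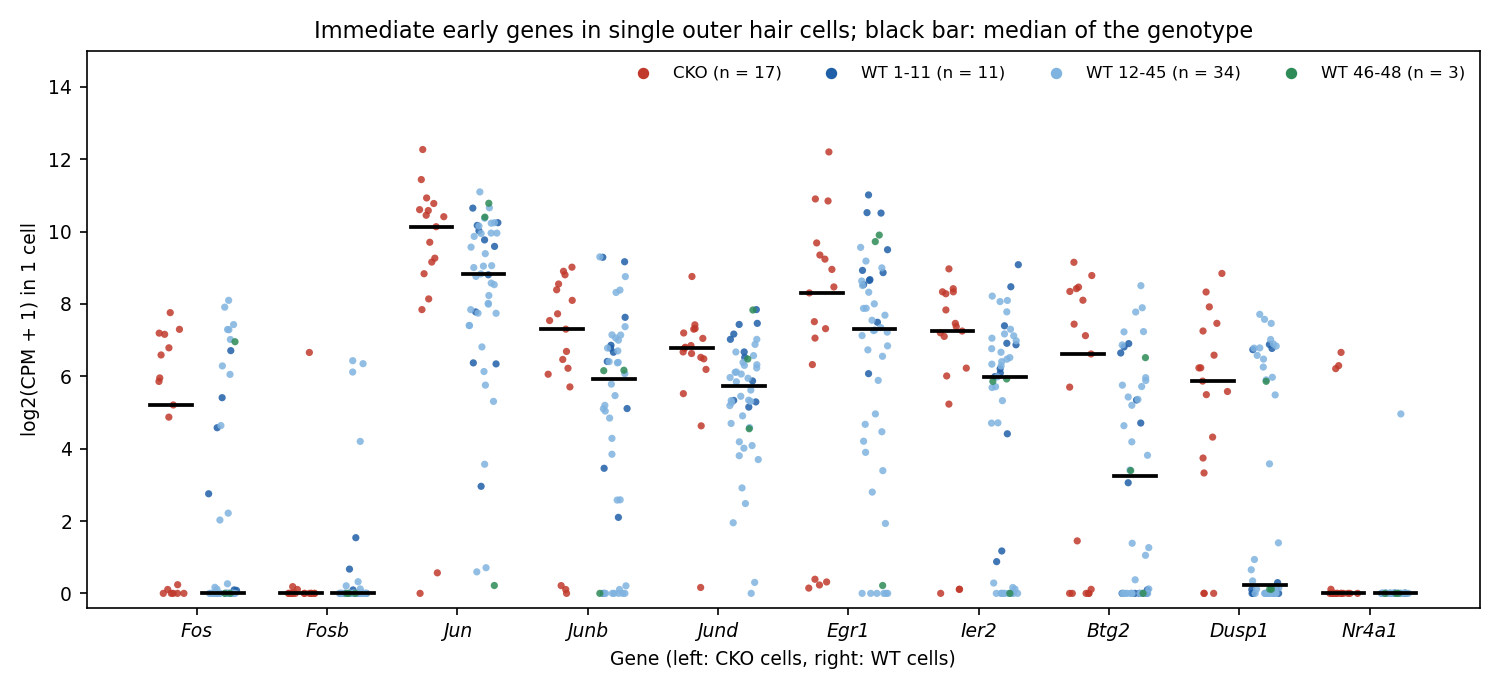
Level of each immediate early gene in every cell, as log2(CPM + 1), with CKO cells left of WT cells and 1 point per cell; colours mark CKO cells and the 3 runs of WT cell numbers, and black bars the median of each genotype. Jun, Jund and Egr1 have counts in nearly all cells, while Nr4a1 has counts in 4 of 17 CKO cells and 1 of 48 WT cells.

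Among the Fos family, Fos itself (chromosome 12) was an on or off gene. It ran from 0 to 216 CPM in CKO cells with a median of 35.96 CPM, and from 0 to 273 CPM in WT cells with a median of 0. Counts of Fos were present in 12 of 17 CKO cells and 21 of 48 WT cells, and 10 CKO and 13 WT cells had at least 10 CPM. The ranges overlapped fully, and the highest single cell was WT; when each CKO cell was set against each WT cell, the CKO cell was higher in 65.6% of the 816 pairs. Over the summed cells Fos stood at 65.9 CPM in CKO and 33.9 CPM in WT cells, a log2 ratio of 0.96 (0.93 to 0.99). Fosb, the close relative whose truncated form accumulates with repeated stimulation in neurons, was nearly silent: 3 of 17 CKO cells and 10 of 48 WT cells had counts, and its sums were 6.20 and 5.86 CPM. CKO cell 8, at 100.1 CPM, held 99.8% of the Fosb counts of its group. Without it 3 counts remained over the CKO cells and the log2 ratio was -8.52 (-10.79 to -6.97), so the even sums of Fosb rest on 1 cell.

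Jun and Jund were detected in nearly every cell and Junb in most. Jun, the main partner of Fos in AP-1, ran from 0 to 4936 CPM in CKO cells with a median of 1124 CPM, and from 0.163 to 2191 CPM in WT cells with a median of 450.7 CPM. It was detected in 16 of 17 CKO and 48 of 48 WT cells. The groups overlapped, with the upper end of the CKO range beyond every WT cell, and the sums were 1332 and 636 CPM, a log2 ratio of 1.07 (1.06 to 1.07). Junb, which can restrain Jun, ran from 0 to 517 CPM in CKO cells with a median of 157.0 CPM, against 0 to 630.1 CPM and a median of 60.2 CPM in WT cells. It had counts in 16 of 17 CKO and 39 of 48 WT cells. Jund, the member of the family that resting cells express most steadily, ran from 0.12 to 432 CPM in CKO cells with a median of 108.5 CPM, and from 0 to 229 CPM in WT cells with a median of 52.4 CPM. Its log2 ratio of 0.88 was near that of Junb at 0.86, but a CKO cell had the higher Jund level in 74.1% of pairs, the largest such share among the 10 genes, against 67.5% for Junb. The exons of Jun, Junb and Jund overlap Junos, Prdx2 and Gm11175 on the opposite strand, and the strand setting of the counting is not given, so reads of these pairs cannot be told apart.

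Egr1, the zinc finger factor, and Ier2 were also widely expressed. Egr1 ran from 0.106 to 4713 CPM in CKO cells with a median of 315 CPM, and from 0 to 2067 CPM in WT cells with a median of 158.0 CPM. Its sums were 762.0 and 352 CPM, a log2 ratio of 1.11 (1.10 to 1.12), but CKO cell 14 alone held 47.4% of the CKO counts. A CKO cell was the higher one in 59.2% of pairs. CKO cell 14 was also the highest cell for Jun and Jund; without it the log2 ratio was 0.30 for Egr1, 0.70 for Jun and 0.56 for Jund. Ier2 ran from 0 to 500.6 CPM in CKO cells with a median of 151 CPM, and from 0 to 542 CPM in WT cells with a median of 62.5 CPM. The summed level of Ier2 was 168.6 CPM in CKO and 93.4 CPM in WT cells, and a CKO cell was higher in 69.9% of pairs.

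Btg2, Dusp1 and Nr4a1 had the highest ratios. Btg2 ran from 0 to 568 CPM in CKO cells with a median of 97.2 CPM, and from 0 to 363 CPM in WT cells with a median of 8.42 CPM. Its sums were 172.5 and 44.6 CPM, a log2 ratio of 1.95, which stayed between 1.69 and 2.19 when each cell was left out in turn. Dusp1, the phosphatase that ends MAP kinase signals, ran from 0 to 458.5 CPM in CKO cells with a median of 57.4 CPM, and from 0 to 209 CPM in WT cells with a median of 0.169 CPM. It reached at least 10 CPM in 13 of 17 CKO and 19 of 48 WT cells, and its sums were 110.2 and 41.4 CPM, a log2 ratio of 1.41. Dusp1 exons overlap Ergic1 on the opposite strand, which carries the same limit as for the Jun genes. Nr4a1, the nuclear receptor, was the rarest: it had at least 10 CPM in CKO cells 7, 10 and 1 (100.2, 77.5 and 73.2 CPM) and in WT cell 38 (30.1 CPM). All other WT cells were at 0, so the summed levels of 16.3 and 0.613 CPM (log2 ratio 4.73, 4.57 to 4.90) compare a handful of cells. Leaving out CKO cell 7 gave 4.13 for Nr4a1, 1.07 for Dusp1 and 0.72 for Fos. With WT cell 38 left out, no WT count of Nr4a1 remained and the log2 ratio was at least 11.51, set against a floor of 3 counts over the group.

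**Figure D2:**
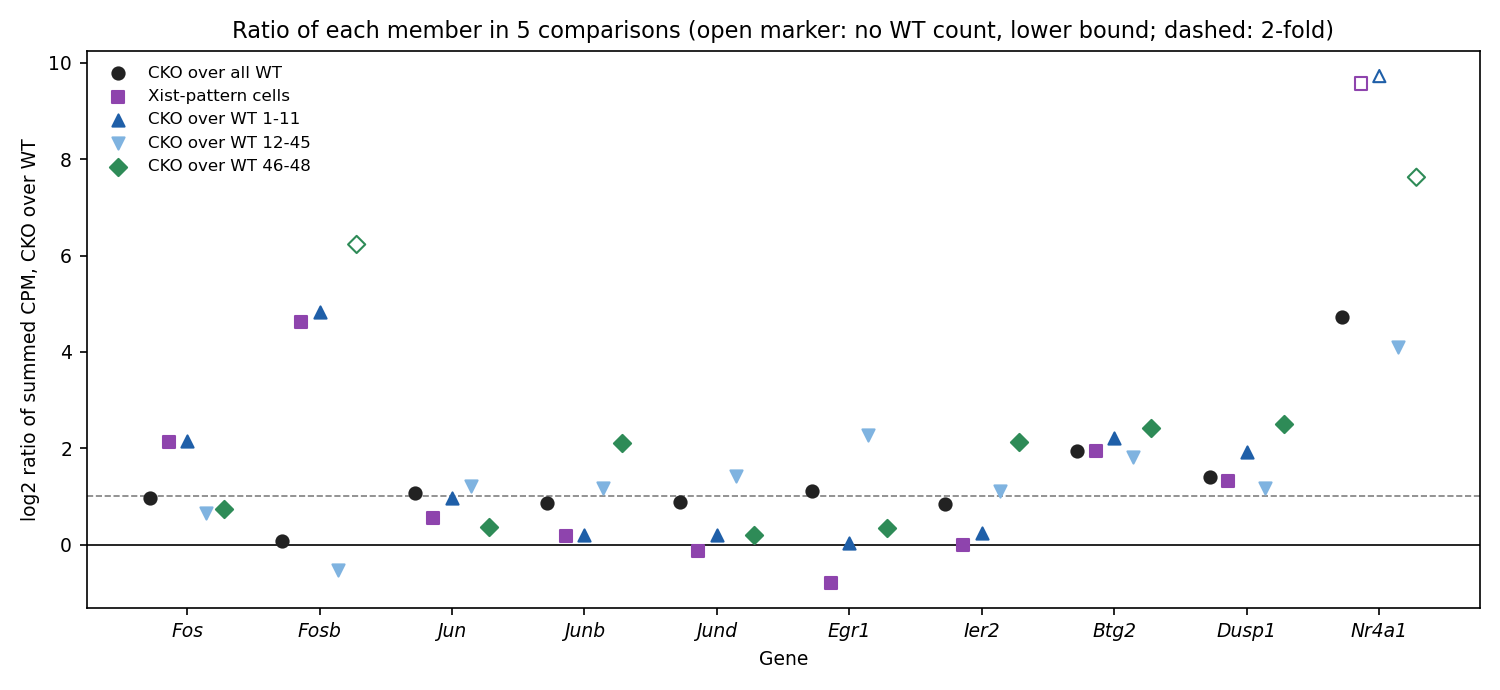
Log2 ratio of summed CPM, CKO over WT cells, for each member, with all cells, with the Xist-pattern cells and with each run of WT cell numbers alone; open markers are lower bounds and the dashed line is 2-fold. The points of Btg2, Dusp1, Fos, Jun, Junb and Nr4a1 lie above 0 in all 5 comparisons; those of Fosb, Jund, Egr1 and Ier2 lie on both sides.

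The size of the difference depended on which cells were used. The 15 CKO and 9 WT cells with the Xist pattern leave out CKO cells 12 and 14, which had neither sex pattern; among them 7 members were higher and 3 lower in CKO cells, and 5 were at least 2-fold higher, beside 52.3% and 24.4% of all measured genes. The lower ones there were Egr1 at -0.78, Jund at -0.13 and Ier2 at -0.0094. Egr1 stood there at 415 CPM in CKO and 716 CPM in WT cells, and with all 17 CKO cells against the same 9 WT cells its log2 ratio was 0.090, that of Jund 0.12 and that of Ier2 0.096. Against WT cells 1 to 11 all 10 were higher and 5 at least 2-fold higher (52.3% and 22.2% of all genes), but Egr1, at 0.044, Jund, at 0.20, Junb, at 0.21, and Ier2, at 0.24, were close to even. Without CKO cells 12 and 14, Egr1 was at -0.83 and Jund at -0.048 against that run. Against WT cells 12 to 45 Egr1 had a log2 ratio of 2.27, Jund of 1.43, Junb of 1.17 and Ier2 of 1.12; 9 members were higher and 8 at least 2-fold higher, beside 50.1% and 17%. Against WT cells 46 to 48 all 10 were higher and 6 at least 2-fold higher (54.4% and 33.9%). No member was 2-fold lower or more in these 4 comparisons, beside 19%, 17.9%, 15.9% and 21.2% of all genes. Btg2 was at 1.95, 2.22, 1.81 and 2.42 in these 4 comparisons, and Dusp1 at 1.32, 1.91, 1.17 and 2.50. Fos had 2.14, 2.15, 0.66 and 0.74, with higher ratios against the first run. Sex, run of cell numbers and genotype cannot be told apart for any of the 10 members.

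Per length of exon, Jun was the most abundant member in both groups, at 417.8 CPM per kb in CKO cells and 199.5 CPM per kb in WT cells. Egr1 (169.9 and 78.5 CPM per kb), Ier2 (110.8 and 61.4), Junb (87.4 and 48.02), Jund (76.6 and 41.7) and Btg2 (62.9 and 16.3) came next in the same order in both. Dusp1 stood above Fos in CKO cells (33.3 and 28.01 CPM per kb) and below it in WT cells (12.5 and 14.4). Nr4a1 and Fosb were last, at 4.65 and 0.993 CPM per kb in CKO cells and 0.175 and 0.938 CPM per kb in WT cells. The quartile ranges over cells of every pair of neighbours in these orders overlapped, in both groups. The orders are those of summed levels. By the median over cells Ier2 stood above Egr1 in both groups. These medians were 99.4 and 70.4 CPM per kb in CKO cells, and 41.1 and 35.2 CPM per kb in WT cells. In WT cells Jund (31.4) was then also above Junb (26.2), and Dusp1 (0.051) above Fos (0).

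A cell rarely expressed the whole set. The number of members at or above 10 CPM had a median of 7 in CKO cells (2 to 9) and 5 in WT cells (0 to 8), and no cell had all 10. At least 7 members reached that level in 10 of 17 CKO and 13 of 48 WT cells. The members were chosen as higher in CKO cells, so nothing is read from the difference between genotypes in these counts. The share of all genes at that level per cell was not computed. Fos and Dusp1 were both on in 9 of 17 CKO and 7 of 48 WT cells, and Fos and Nr4a1 in 3 CKO and 1 WT cells. Egr1 was at or above 10 CPM in 10 of the 10 CKO cells and 11 of the 13 WT cells that had Fos there, beside 13 of 17 and 38 of 48 over all cells. Counts of genes detected also moved with the mean of log2(CPM + 1) over the members, called the member score here, with a Spearman correlation (rho) of 0.50 across CKO and 0.39 across WT cells; the part of detection in these numbers was not tested. The summed level of 12 supporting cell markers, of which 5 were measured, ran from 0.24 to 495 CPM per CKO cell and from 0 to 486 CPM per WT cell, with a rho to the score of 0.48 and 0.19; its part was not tested either. Epcam of that list had counts in 16 of 17 CKO and 45 of 48 WT cells, while Sox2 had none in CKO cells and counts in 2 WT cells.

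Single cells showed how separable the members were. CKO cell 7 had the highest Dusp1 and Nr4a1 of all 65 cells and the highest Fos of the CKO cells (458.5, 100.2 and 216 CPM), with Egr1 at 132.1 CPM. In the same cell Jun was at 0.48, Junb at 0.16, Ier2 at 0.080, Btg2 at 0.080 and Hspa5 at 2.81 CPM. Its library had 12449802 counts over 6971 genes. Of the listed OHC markers, Slc26a5 was at 1098 CPM, Ocm at 52760 CPM, Pou4f3 at 1109 CPM and Tmc1 at 1172 CPM. Others were low in it, with Chrna9 at 74.9 CPM and Strip2 at 155.2 CPM, the lowest Strip2 of all 65 cells. CKO cell 14 had the highest Jun, Egr1 and Jund of all cells, with Jun at 4936, Egr1 at 4713 and Jund at 432 CPM but Dusp1 at 0. In CKO cell 4 the only members at or above 10 CPM were Jund (44.9 CPM) and Btg2 (97.2 CPM), with Jun at 0. WT cell 15 had none there. These cells were picked out after their values were seen.

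**Figure D3:**
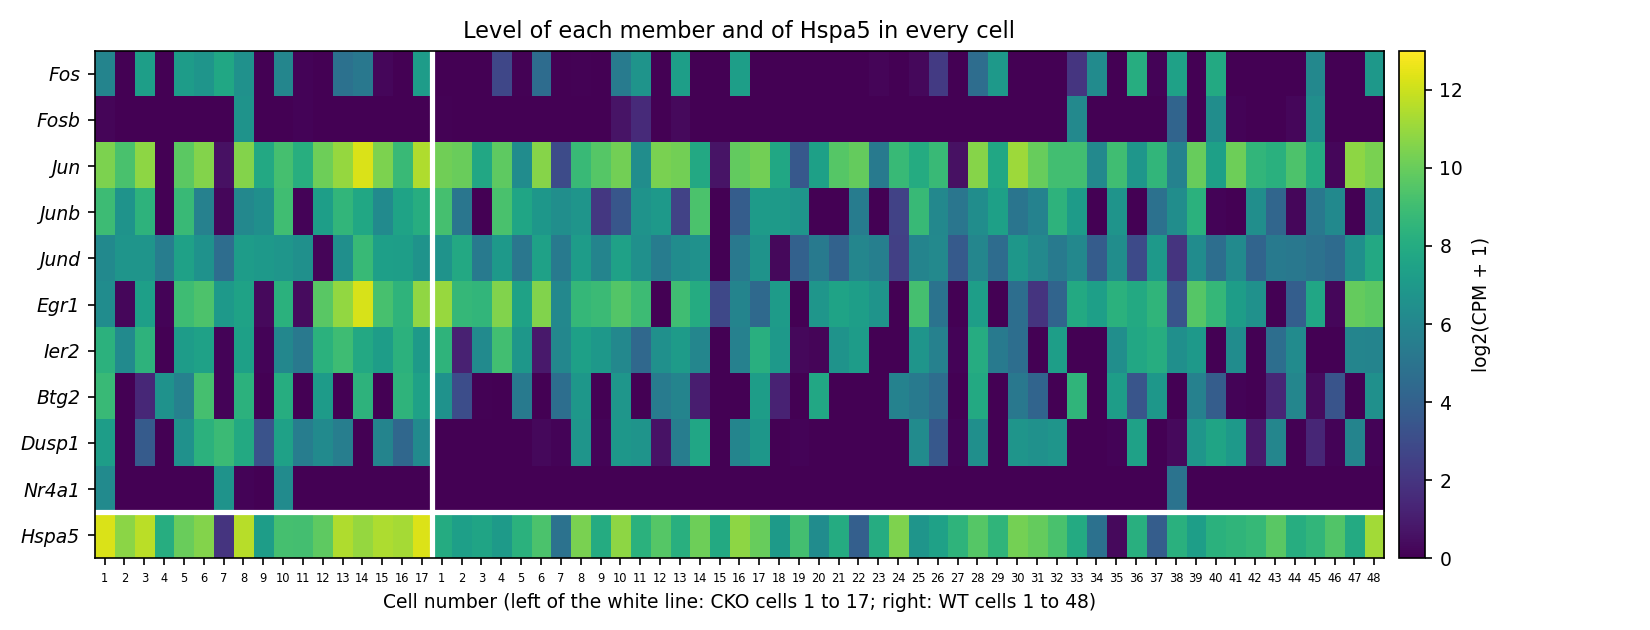
Level of the 10 members and Hspa5 in each of the 65 cells as log2(CPM + 1), CKO cells left of WT cells and each group in the order of its cell numbers. Jun is bright in nearly every column, Nr4a1 and Fosb are dark in nearly all, and no column reaches 10 CPM for all 10 genes.

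Across cells of 1 genotype, correlations between members were mostly weak and positive, and the highest pairs differed between the genotypes. Of the 45 pairs, 37 were positive in CKO and 35 in WT cells. The median rho over these pairs was 0.23 within CKO cells (-0.30 to 0.72) and 0.15 within WT cells (-0.23 to 0.67). Over all pairs of 5268 genes the median was near 0 in both groups. These genes were measured and had counts in at least 50% of cells of each genotype, a filter that Fos, Fosb and Nr4a1 did not pass. Of the pairs of those genes 2.46% within CKO and 0.0658% within WT cells reached 0.5. Among the member pairs 6 of 45 within CKO and 2 within WT cells did. In the CKO cells these were Jun with Egr1 (0.72), Jun with Ier2 (0.69), Egr1 with Ier2 (0.57), Junb with Ier2 (0.52), Dusp1 with Nr4a1 (0.66) and Fos with Dusp1 (0.61). In the WT cells they were Jun with Jund (0.67) and Jund with Egr1 (0.62). Jun with Egr1 was at 0.37 and Jun with Ier2 at 0.36 in WT cells, while Fos with Dusp1 was at 0.17 and Dusp1 with Nr4a1 at 0.02. The 17 CKO cells give wider chance scatter than the 48 WT cells, Dusp1 with Nr4a1 rests on 3 cells with both genes at 10 CPM, and no difference between the genotypes was tested.

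**Figure D4:**
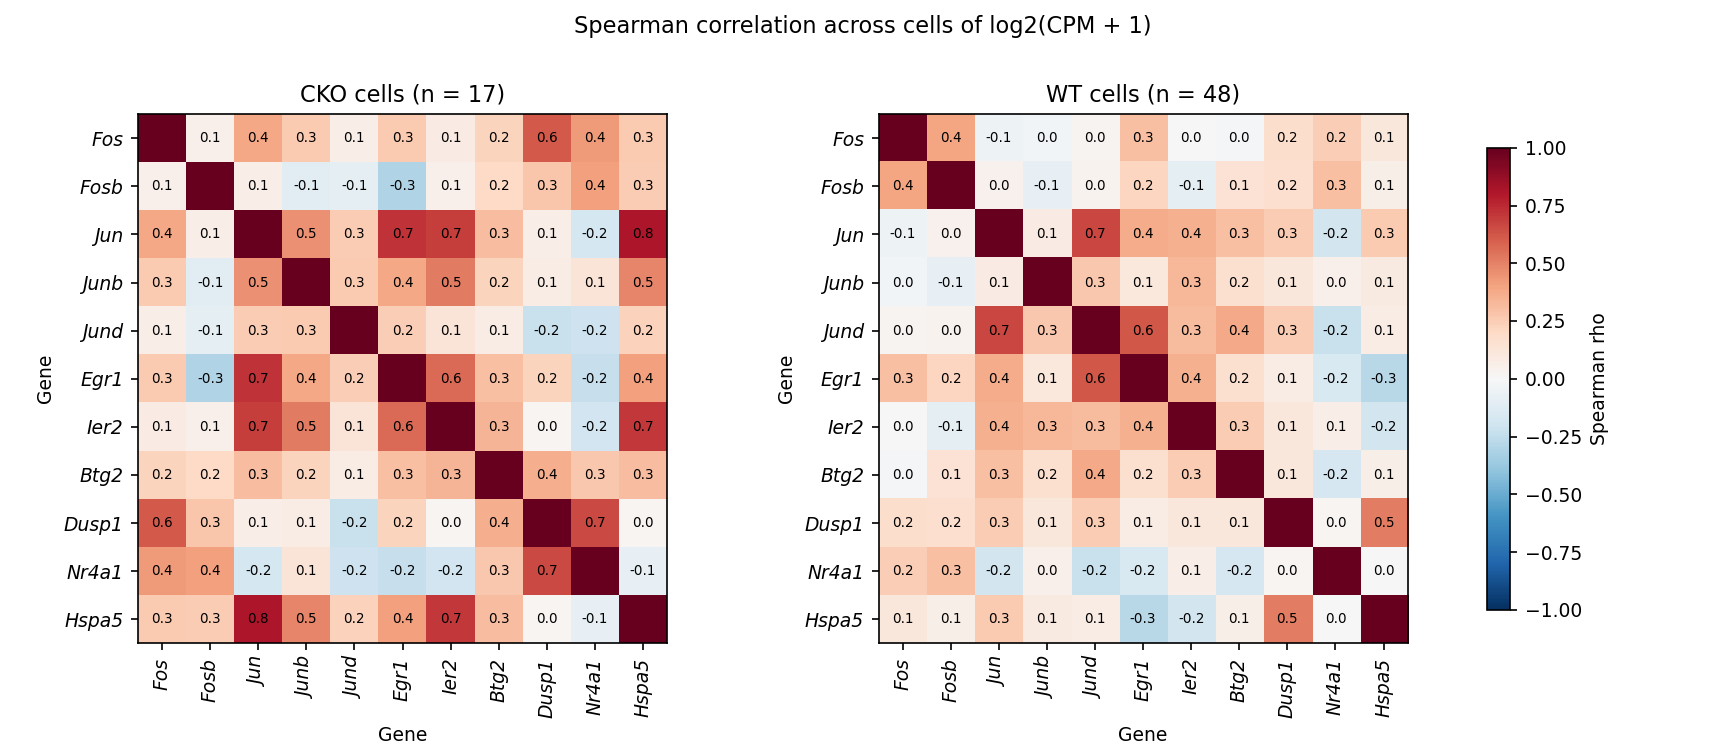
Spearman correlation between each pair of members, and of each with Hspa5, across the 17 CKO cells (left) and the 48 WT cells (right), drawn on 1 colour scale. In the CKO panel the highest values between members are Jun with Egr1 and Jun with Ier2; in the WT panel the highest values between members are Jun with Jund and Jund with Egr1.

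Hspa5, the ER chaperone gene that is induced by unfolded protein in the ER, ran from 2.81 to 5131 CPM in CKO cells with a median of 1707 CPM, and from 0.24 to 2361 CPM in WT cells with a median of 306 CPM. Over all 65 cells the rho of the member score with Hspa5 was 0.45 (Pearson's r 0.35), higher than that of 99.69% of measured genes. That pooled value spans 2 genotypes that differ in both quantities, and the members were chosen as higher in CKO cells. The score is a mean over members but was ranked against single genes, so its rank is not one among like quantities. Its rho was above that of 99.32% of genes within CKO cells and 83.63% within WT cells. The share was 96.91% within WT cells 1 to 11 and 58.06% within WT cells 12 to 45. Within CKO cells rho was 0.64, and 0.53 without the 2 cells farthest from the median of Hspa5; within WT cells it was 0.15, and 0.038 within WT cells 12 to 45. It was 0.61 within WT cells 1 to 11, but 0.28 without the 2 farthest of those 11 cells.

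Single members differed widely in their relation to Hspa5. Jun followed it most closely in CKO cells, with a rho of 0.81 (0.77 to 0.87 when each cell was left out), higher than 99.97% of genes; in WT cells its rho was 0.26. Ier2 came next in CKO cells at 0.71 (0.65 to 0.82), and was at -0.18 in WT cells. Egr1 was at 0.41 in CKO cells and -0.28 in WT cells, and at -0.51 within WT cells 12 to 45. Dusp1 ran the other way: its rho was 0.022 in CKO cells, 0.23 without CKO cell 7, and 0.51 in WT cells (0.49 to 0.57), higher than 99.93% of genes. Within WT cells 1 to 11 and 12 to 45 Dusp1 was at 0.72 and 0.49. Without the 2 cells farthest from the median of Hspa5 in each run, these values were 0.46 and 0.59. In the first run only WT cells 8, 10 and 11 had at least 10 CPM of Dusp1. The mitochondrial share of counts moved against both sides of these relations: over all cells its rho was -0.53 with Hspa5 and -0.44 with the member score. Within CKO cells it was -0.21 with Hspa5 and -0.50 with Jun, and within WT cells -0.35 with Hspa5 and -0.50 with Dusp1; its part was not tested. Fos was at 0.26 in CKO cells, 0.52 without CKO cell 7, and 0.11 in WT cells. The correlation lay between -0.082 and 0.49 for Junb, Jund, Btg2, Fosb and Nr4a1 in both groups, with Junb in CKO cells the highest of them, above 95.74% of genes. Fosb and Nr4a1 had counts in too few cells for their values to be read. The number of genes detected had a rho of 0.51 with Hspa5 in CKO and -0.043 in WT cells, and its part in these relations was not tested. Against the mean of log2(CPM + 1) over the other measured ER stress genes, without Hspa5, the pattern over members was another one. The member score then had a rho of 0.64 in CKO and 0.36 in WT cells, Jun one of 0.38 and 0.23, Ier2 one of 0.41 and 0.29, and Dusp1 one of 0.17 and 0.40. Egr1 was then at 0.10 in CKO cells and 0.081 in WT cells, and at 0.020 within WT cells 12 to 45.

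**Figure D5:**
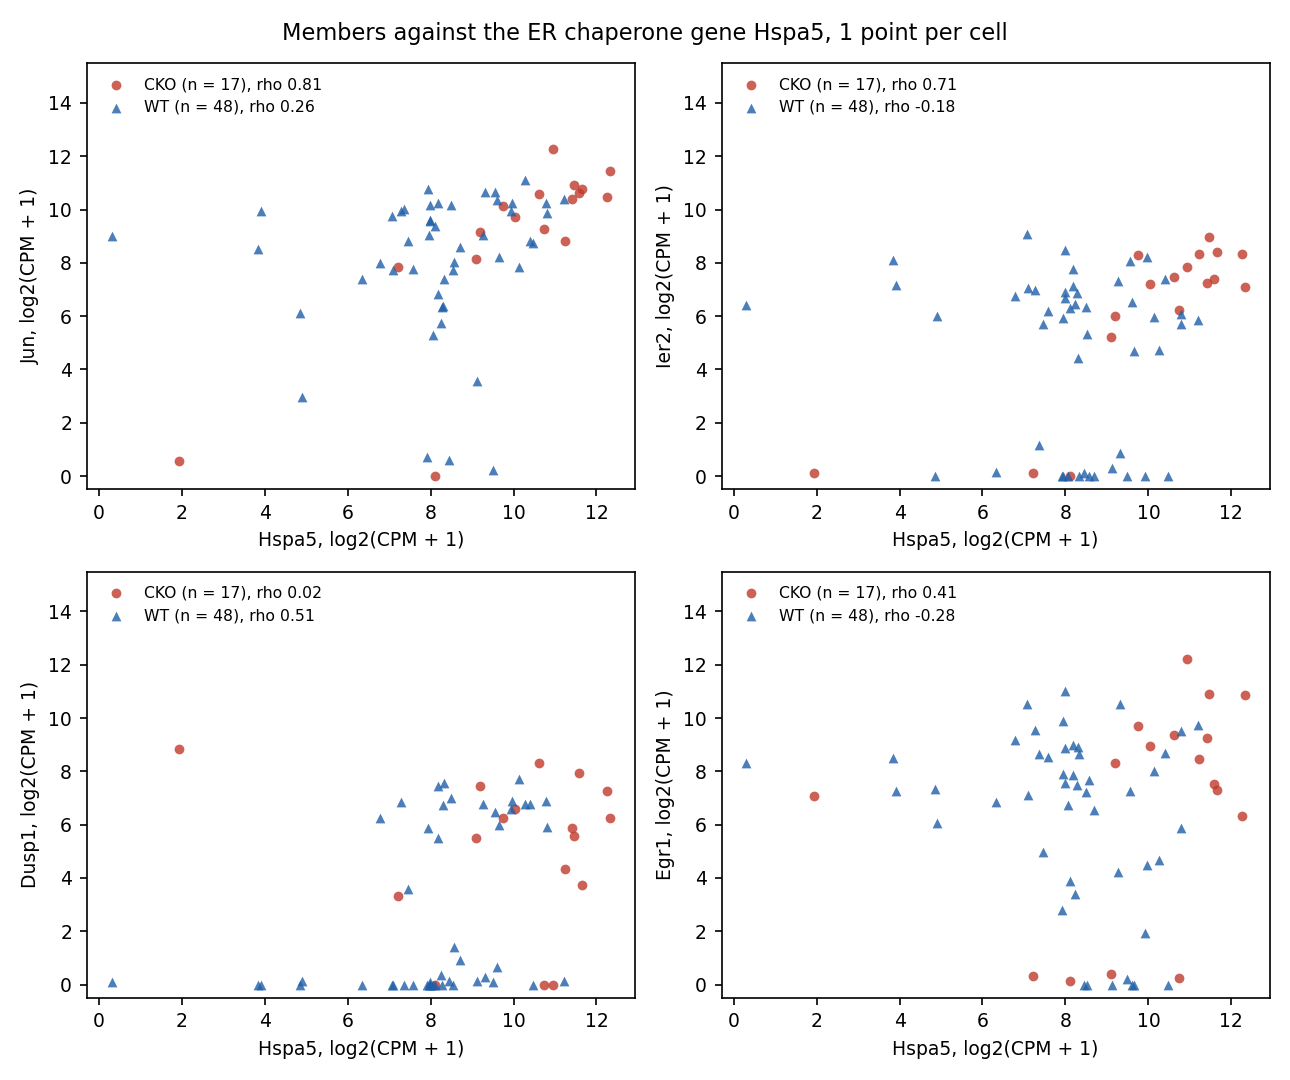
Jun, Ier2, Dusp1 and Egr1 against Hspa5, each point 1 cell on log2(CPM + 1) axes, CKO cells as circles and WT cells as triangles. Jun is higher where Hspa5 is higher among CKO cells (rho 0.81), and Dusp1 among WT cells (rho 0.51), where many cells lie at 0.

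Other immediate early genes were listed in 3 groups of 48 genes in all, of which 26 were measured. Of these, 20 were higher and 6 lower in CKO cells, beside 50.4% of all genes higher. By at least 2-fold 10 were higher and 2 lower, beside 15.1% and 14.5% of all genes. Nr4a3 was measured through 1 CKO cell at 139 CPM. Arc, at up to 120 CPM in a WT cell, summed to 3.03 CPM over the WT cells and was not measured. Nr4a2, Batf, Klf2, Klf4, Gadd45b, Plk3, Socs3 and Hes1, also not measured, had counts in WT cells only. Pim1 and Egr4, not measured either, were higher in CKO cells, at log2 ratios of 0.54 and 0.071. The 20 and 6 therefore do not stand for the whole list. Among further AP-1 partners, Maff was at 9.22 CPM in CKO and 1.55 CPM in WT cells, Mafk at 45.1 and 19.3 CPM, and Atf3, a stress-induced member, at 7.997 and 3.49 CPM in 2 CKO and 6 WT cells. Nr4a3, a relative of Nr4a1, was at 10.1 CPM in CKO cells, all from 1 cell, and 0.0018 CPM in WT cells, and Egr2 at 24.3 and 5.54 CPM, in 3 CKO and 2 WT cells. Single cells carried several of these values: the log2 ratio was -0.30 for Egr2 without CKO cell 8, 0.0086 for Atf3 without CKO cell 6 and 0.55 for Mafk without CKO cell 14, while without WT cells 2, 31 and 45 it was 6.71 for Maff, 3.87 for Atf3 and 4.08 for Egr2. Id1 (5.95 and 0.794 CPM), Klf10 (18.03 and 3.50 CPM) and Ccn1 (31.4 and 8.78 CPM) were higher and Rgs2 (no count in CKO cells, 7.08 CPM in WT cells) lower. Without CKO cell 5 the log2 ratio of Id1 was 1.75 and without WT cell 24 it was 4.38, and without CKO cell 2 that of Klf10 was 1.49. Fosl1, Egr3, Nab2, Npas4, Ccn2 and Per2 had no count in any cell; Npas4 is the member of this family most tied to neuronal activity.

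Of 17 listed genes that shut the response off, 7 were measured, 4 higher and 3 lower. Over all genes 50.4% were higher, a share near this one. Dusp10 was at 69.3 CPM in CKO and 23.4 CPM in WT cells, and Dusp8 at 134.8 and 61.4 CPM. Zfp36, which speeds decay of the transcripts, was at 5.70 CPM in CKO and 12.5 CPM in WT cells. The Zfp36 counts of CKO cells came almost wholly from CKO cell 8, and its log2 ratio was -9.20 without it. The factors that bind the promoters beforehand gave 7 higher and 7 lower of 14 measured, with a median log2 ratio of 0.0029. The kinases above them gave 10 higher and 9 lower of 19 measured, with 0.047. Both counts were near the 50.4% of all genes that were higher. Srf, the serum response factor, had counts in 2 CKO and 5 WT cells, at 10.1 and 3.99 CPM, and its log2 ratio was -0.64 without CKO cell 14 and 2.17 without WT cell 33. Elk1, its partner, was at 16.3 and 2.56 CPM, in 6 CKO and 7 WT cells, with a log2 ratio of 3.97 without WT cell 42. Mapk10, a JNK gene, was at 44.5 and 0.0055 CPM, while Mapk9, another JNK gene, was at 5.31 and 32.3 CPM, with a log2 ratio of -4.09 without CKO cell 15. The ER stress list had 14 higher and 5 lower of 19 measured, beside 50.4% of all genes higher. By at least 2-fold 8 were higher and 1 lower, beside 15.1% and 14.5% of all genes. Trib3, Chac1 and Sesn2, listed but not measured, had counts in WT cells only. Ddit3, the gene of CHOP, was at 288.8 and 72.3 CPM, and Ern1, the 1 that was lower by 2-fold, at 0.010 and 9.33 CPM. Heat shock and dissociation genes were higher in 10 of 11 measured, 2 by at least 2-fold, beside 50.4% and 15.1% of all genes, so the share past 2-fold was near that of all genes. Dnajb1 was at 1104 and 332 CPM (699 CPM in CKO cells without CKO cell 14) and Hspd1 at 257 and 127 CPM. The summed level of this list ran from 8640 to 23470 CPM per CKO cell and from 6465 to 17010 CPM per WT cell, with a rho to the member score of 0.56 and 0.34. The part of dissociation in the immediate early genes was not tested.

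Among 5042 genes compared, the genes most like the member score, by the mean of the 2 rho values within 17 CKO and 48 WT cells, included Pdia3, H1f2, Tspan3, Ppp1r15a, Ttc1, Nfkbia, Atf4, Marchf7 and Ubald2. Pdia3, an ER disulfide isomerase, had a mean rho of 0.56 (0.73 in CKO and 0.39 in WT cells), and the tenth gene, Ubald2, one of 0.49, beside a median of 0.043 over all genes compared. Ppp1r15a, which reverses the translation block of the stress response, was at 0.66 and 0.33, and Atf4, the transcription factor of that response, at 0.63 and 0.35. Nfkbia, the NF-kappa-B inhibitor, was at 0.74 and 0.23. Hspa5 was the 60th, at a mean rho of 0.39. Of those named, Nfkbia had the highest ratio between groups, at 912 CPM in CKO and 146 CPM in WT cells, while Tspan3 was nearly even at 441.0 and 429.6 CPM.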

How the data were processed

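Single P10 OHCs were profiled by Smart-Seq HT, per the labels' protocols. Their text speaks of inner hair cells and induced OHCs, but the sample titles and the design text name OHCs and were used. The authors deposited whole-number counts per gene for 65 cells. Per the submitters' processing notes, HISAT2 2.2.1, StringTie 2.2.1 and featureCounts 2.0.1 were used with mm10; which tool counted, the annotation and the strand setting were not given in the sources used here. Positions come from GENCODE M21, which names 96.4% of the table's genes, and promoter windows from RefSeq.

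The members and lists were chosen with earlier results of these data known, and the runs of cell numbers were set after mt-Co2 was seen. Counts were summed per genotype and divided by the summed totals to give CPM per 1000000 counts. Log2 ratios carry exact conditional (Clopper-Pearson) 95% intervals for counting error; without molecular identifiers, reads do not stand for independent molecules. A gene counted as measured at 5 CPM or more in either group. This filter acts on summed levels, so 1 cell lifts a gene past it more easily in the smaller CKO group. Cells are not replicates, so no p-value is given. A pseudocount of 1 CPM was used for scores, and correlations are Spearman's rho. Cells with 10 or more Xist counts and under 10 counts over the Y-linked genes have the Xist pattern. Of 2080 pairs of cells, 0 were identical. No cell was removed and no doublet caller was run, since cells were picked singly. The script was tested on simulated data.

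Named genes are the 10 members, Hspa5, up to 4 genes per list with the largest absolute ratio, and the 10 genes most like the member score, of which 1 is not reported here; cells, genes and motifs beyond these were picked after their values were seen. Alternatives were TMM factors (edgeR 4.0.16), median-of-ratios factors (DESeq2 1.42.0), a reduced total, medians of per-cell CPM, subsets of cells and leaving out cells, some chosen after seeing the data. Python 3.11.15, R 4.3.3 and scipy 1.17.1 were used.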

Additional observations from a re-analysis of the deposited data

How the results depend on the processing

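TMM, median-of-ratios and reduced-total scaling shifted every log2 ratio by -0.043, -0.12 and -0.031, and of the 10 members only Fosb changed direction, to -0.040 under the median-of-ratios factors. The count of members at least 2-fold higher was less stable. It was 5 with all cells, 3 with median-of-ratios factors, 3 without the highest cell of each member in each group, and 8 against WT cells 12 to 45, where Junb, Jund and Ier2 passed the line. With medians of per-cell CPM plus 1, 8 members were higher and 7 at least 2-fold, Fos at 5.21, Dusp1 at 5.64, Btg2 at 3.38, and Fosb and Nr4a1 at 0. Leaving out each cell in turn gave 3 (without CKO cell 17) to 7 (without WT cell 4) such members, 9 to 10 members higher, and a median log2 ratio of 0.83 (without CKO cell 14) to 1.10. Against WT cells 46 to 48 that median was 2.12. The share of all genes was not computed for the median-of-ratios factors, the medians of per-cell CPM or the omissions of cells. The counts of members under these settings can therefore not be set beside one. Egr1 turned to -0.78 among Xist-pattern cells, which leave out CKO cell 14, which holds 47.4% of its CKO counts, and CKO cell 12. With these kept it was 0.090, and with them left out it was -0.83 against WT cells 1 to 11. These and the single-cell omissions for other listed genes, where Egr2 ran from -0.30 to 4.08 and Srf from -0.64 to 2.17, were chosen after seeing the data. The rho of the member score with Hspa5, 0.45 over all cells, was 0.15 in WT cells, 0.038 in WT cells 12 to 45, 0.68 in Xist-pattern cells and 0.43 to 0.48 when each cell was left out. The median rho over member pairs was 0.19 to 0.25 then. No paired analysis was possible because the numbers in the labels name single cells and no genotype test was run. Depth was at least 7458126 counts per cell, and the number of animals is not known, so the spread between animals was not measured.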
